A study of Mus musculus with 7 samples.

Results

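Polycomb repressive complex 2 (PRC2) is represented here by 10 genes taken by symbol: the core subunits Ezh1, Ezh2, Suz12, Eed and Rbbp4, and the accessory subunits Phf1, Mtf2, Phf19, Jarid2 and Aebp2. They are 10 of the 56953 genes in each file and 10 of the 13990 genes that passed the filter on low counts, so that every one was tested. The genes, and the setting of Ezh2 and Phf19 against the other members, were chosen by earlier fold changes between these same groups of libraries, those of Ezh2 and Phf19 first. Their values between the groups are therefore a description, and no p-value is given for them.

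PRC2 is a chromatin complex that methylates histone H3 at lysine 27 (H3K27), a mark of repressed developmental genes. Ezh2 or its relative Ezh1 carries the catalytic site, which needs Suz12 and Eed, and the histone-binding protein Rbbp4 completes the core. A Polycomb-like protein (Phf1, Mtf2 or Phf19) defines one form of the complex, and Jarid2 with Aebp2 defines another. Ezh2 is known as a gene of dividing cells and a target of E2F transcription factors, Ezh1 is known to persist in resting cells, and Ezh2 is studied in melanoma as an enzyme that helps tumour cells to grow and to evade immune recognition.

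RNA was sequenced from B16 tumours, a mouse melanoma cell line grown in mice. All 7 mice had received radiotherapy at 8 Gy, and the tumours were taken 5 days after treatment, when live cells without the leukocyte marker CD45 and the endothelial marker CD31 were sorted. In 3 libraries the radiotherapy was combined with the adeno-associated virus vector AAV-iIL12, whose name refers to interleukin 12, a cytokine known to make T and NK cells release interferon gamma. In 4 control libraries it was combined with AAV-iLuc. The titles of the AAV-iIL12 libraries also carry the letters WT, which the labels do not explain, and host strain and age are not given in the sources used here. The series counts each library as 1 mouse.

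Total counts were 16356653 to 19080587 per library. Melanocyte markers summed to 27845 to 28742 CPM (counts scaled to a common library size by the TMM method) in AAV-iIL12 and 22839 to 25991 CPM in AAV-iLuc, and 3 of 7 were called higher. A gene is called when its Benjamini-Hochberg adjusted p from the edgeR quasi-likelihood test is under 0.05. Of all 13990 genes, 3292 were called higher in AAV-iIL12 and 3316 lower, and scaling by library size alone gave 2506 and 4460. In AAV-iIL12, replicates 2 and 3 were closer to each other, with a chi-square per gene of 3.28, than either was to replicate 1 (12.80 and 10.93), and the pairs of AAV-iLuc libraries lay between 6.41 and 11.33. The values without AAV-iIL12 replicate 1 are given with each member that was called.

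The start regions of 5 members are shown first, because 3 of them hold an E2F-type sequence and the other 2 are the members that were called higher. Each stretch is 100 bases from RefSeq on GRCm38.p6, written 5′ to 3′ on the gene's own strand, and positions are counted from the transcription start, with negative positions before it. Capitals mark a match to one of TTTCCCGC, TTTGGCGC, TTTCGCGC or TTTGCCGC on either strand.
Ezh2, chr6:47595020-47595119 (minus strand), positions -89 to 11: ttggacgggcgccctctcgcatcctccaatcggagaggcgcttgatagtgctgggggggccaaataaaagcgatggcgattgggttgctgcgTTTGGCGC
Phf19, chr2:34914127-34914226 (minus strand), positions -250 to -151: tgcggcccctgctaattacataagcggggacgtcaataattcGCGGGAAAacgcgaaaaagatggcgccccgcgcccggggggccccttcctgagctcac
Suz12, chr11:79992856-79992955 (plus strand), positions -250 to -151: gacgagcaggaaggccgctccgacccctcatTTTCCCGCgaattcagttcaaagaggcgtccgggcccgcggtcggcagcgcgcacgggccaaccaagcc
Ezh1, chr11:101226464-101226563 (minus strand), positions -100 to -1: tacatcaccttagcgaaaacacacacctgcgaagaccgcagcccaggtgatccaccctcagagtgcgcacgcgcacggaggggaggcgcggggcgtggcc
Phf1, chr17:26933027-26933126 (plus strand), positions -100 to -1: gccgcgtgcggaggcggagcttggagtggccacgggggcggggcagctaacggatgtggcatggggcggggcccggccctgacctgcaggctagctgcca

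The Ezh2 match is TTTGGCGC at positions 4 to 11, just after the start. In Phf19 the match is TTTCCCGC on the opposite strand at -208 to -201, and in Suz12 it is TTTCCCGC on the gene's strand at -219 to -212. In windows of 300 bases, 250 before and 50 after each start, these letters were found for 3 of 10 members and in 744 of 32851 promoters of the table, 2.26%. A member counts once over all its windows, 14 for the 10 members, while each promoter of the table counts singly, so the units differ. Ezh1, Phf1, Eed, Mtf2, Jarid2, Aebp2 and Rbbp4 had no match in their windows. Suz12 shares the letters with Ezh2 and Phf19, and its level was not called different between the groups. No relation of the letters to the fold changes was tested. The letters TTCNNNGAA, the core of interferon gamma activated sites, occurred in 0 of 10 members' windows and in 8.30% of promoters. GAAANNGAA, taken as an interferon-stimulated response element, occurred in Eed alone among the members and in 8.56% of promoters. A match describes letters and shows no binding.

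Of the members, 2 were called higher in AAV-iIL12 (Ezh1 and Phf1), 3 lower (Ezh2, Phf19 and Rbbp4), and 5 were not called (Suz12, Eed, Mtf2, Jarid2 and Aebp2). Over all genes 47.2% were called in either direction, 23.5% higher and 23.7% lower. The libraries of the 2 groups did not overlap for 5 members, the same 5 that were called, and for 52.5% of all genes tested. The median log2 fold change was 0.00 over the members and -0.01 over all genes. Since earlier values of this contrast chose the members, nothing is read from these shares.

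**Figure D1:**
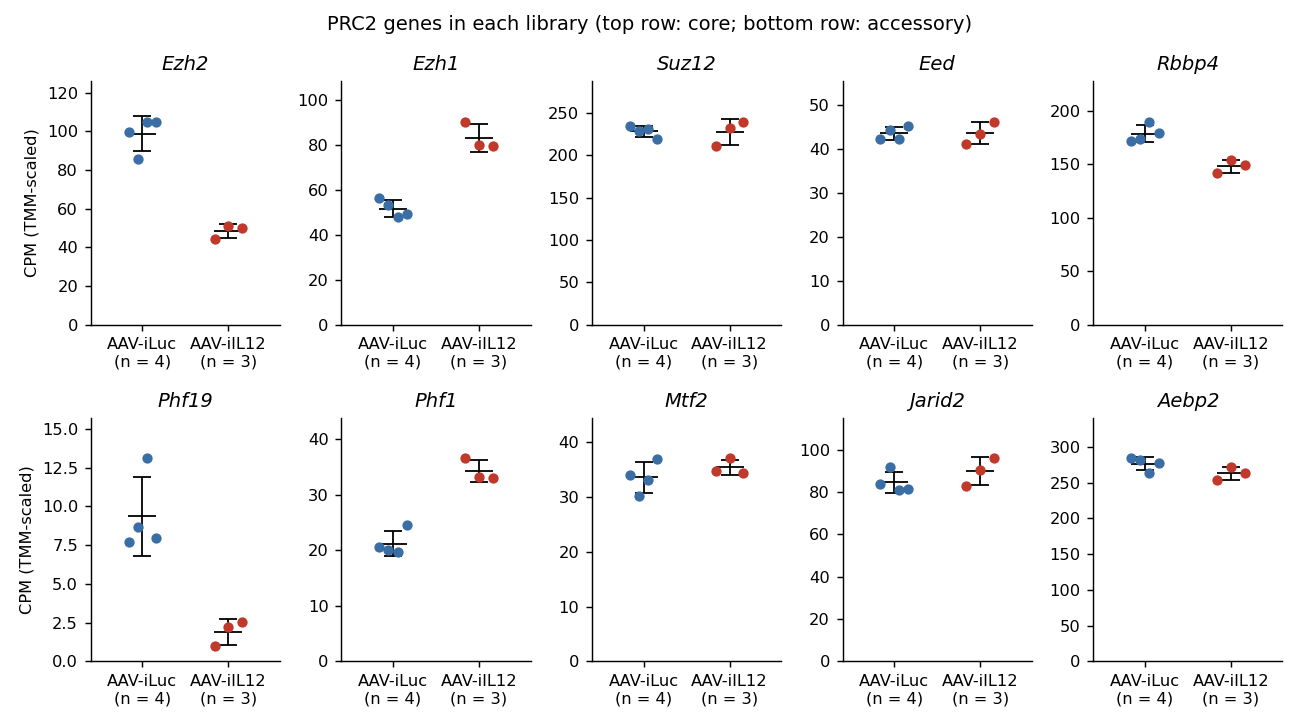
Expression of the 10 PRC2 genes in each library, in TMM-scaled CPM on the vertical axis, with 1 point per library and the mean and SD of each group as bars (n = 4 AAV-iLuc, n = 3 AAV-iIL12). Ezh2, Phf19 and Rbbp4 lie lower in every AAV-iIL12 library than in any AAV-iLuc library, Ezh1 and Phf1 lie higher, and the groups of the other members overlap.

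The catalytic subunits moved in opposite directions. Ezh2 (ENSMUSG00000029687.17, chr6:47507073-47572275, minus strand, GRCm39) stood at 44.2, 50.9 and 50.2 CPM in AAV-iIL12 replicates 1 to 3 and at 99.8, 85.6, 105 and 105 CPM in AAV-iLuc replicates 1 to 4. Every AAV-iIL12 library was below every AAV-iLuc library, and the highest of the first group was well below the lowest of the second. The means were 48.4 ± 3.72 CPM (SD, n = 3) and 98.8 ± 9.11 CPM (SD, n = 4), a log2 fold change of -1.03 ± 0.08 (SE), or 0.491 of the control level. This lay at percentile 4.7 of the fold changes of all tested genes, counted from the lowest. Without AAV-iIL12 replicate 1 its log2 fold change was -0.96.

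Ezh1 (ENSMUSG00000006920.15, chr11:101081941-101117289, minus strand), the relative of Ezh2 with weaker methyltransferase activity, stood at 90.4, 79.9 and 79.4 CPM in AAV-iIL12 and at 56.2, 53.3, 47.8 and 49.4 CPM in AAV-iLuc. All AAV-iIL12 libraries were above all AAV-iLuc libraries. The means of 83.2 ± 6.23 CPM (SD, n = 3) and 51.7 ± 3.81 CPM (SD, n = 4) gave a log2 fold change of 0.69 ± 0.07 (SE), a 1.61-fold higher level, at percentile 89.8 of all genes. In leave-one-out fits over the 7 libraries the log2 fold change of Ezh1 lay between 0.63, without AAV-iIL12 replicate 1, and 0.73.

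The balance of the 2 catalytic transcripts was set out per length, as FPKM (CPM per kilobase of annotated exon). Ezh2 made up 35.2%, 41.5% and 41.3% of the Ezh1 and Ezh2 sum in AAV-iIL12 and 66.4%, 64.1%, 70.9% and 70.3% in AAV-iLuc. Ezh2 was thus the more abundant of the pair in every control library and the less abundant in every AAV-iIL12 library. The mean shares were 39.4% ± 3.58 (SD, n = 3) and 67.9% ± 3.24 (SD, n = 4). The sum of both transcripts differed less than either alone, with 18.4 ± 0.296 FPKM in AAV-iIL12 and 21.7 ± 1.18 FPKM in AAV-iLuc, and its libraries did not overlap (18.2 to 18.8 against 20.0 to 22.5 FPKM). The files measure transcripts, so protein levels and H3K27 methylation were not analysed here. In bulk RNA, fewer cells of a type and less RNA per cell cannot be told apart.

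**Figure D2:**
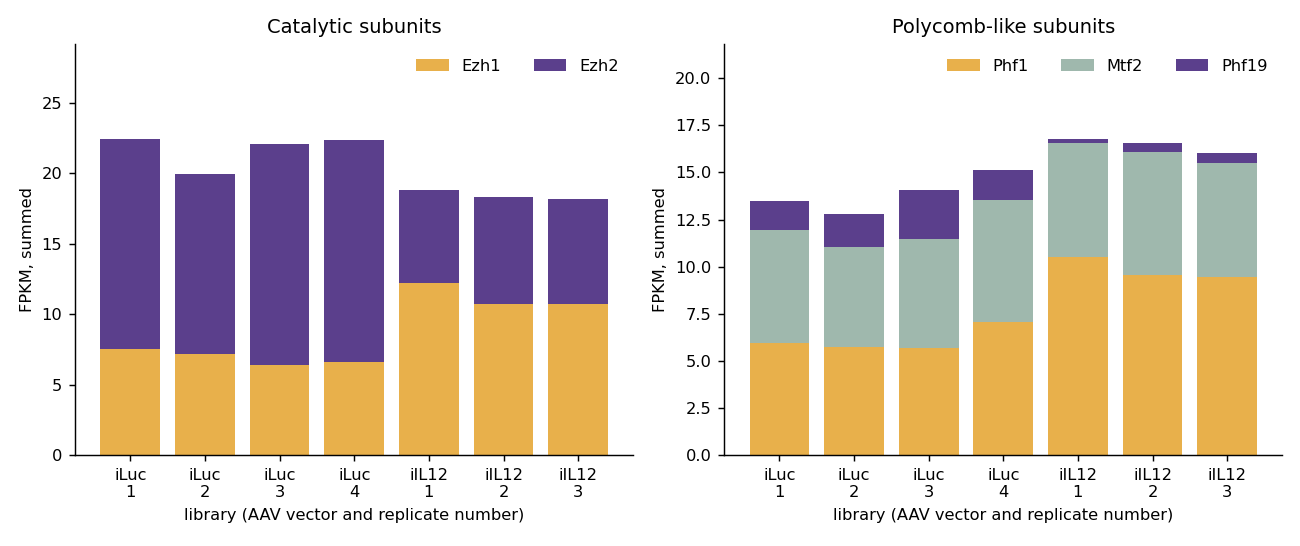
Stacked FPKM of the catalytic subunits (left) and the Polycomb-like subunits (right) in each library, with the libraries on the horizontal axis by vector and replicate number. Ezh2 fills 64.1% to 70.9% of the left bars in AAV-iLuc and 35.2% to 41.5% in AAV-iIL12, and Phf19 fills 10.4% to 18.5% of the right bars in AAV-iLuc and 1.15% to 3.13% in AAV-iIL12.

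The partners that the catalytic site depends on were not called. Suz12 (ENSMUSG00000017548.16, chr11:79883932-79924949, plus strand), the scaffold on which the complex assembles, stood at 211, 232 and 240 CPM in AAV-iIL12 and at 235, 229, 231 and 219 CPM in AAV-iLuc. Eed (ENSMUSG00000030619.11, chr7:89603862-89630191, minus strand), which binds trimethylated H3K27 and stimulates the enzyme, stood at 41.3, 43.4 and 46.3 CPM in AAV-iIL12 and at 42.3, 44.3, 42.4 and 45.4 CPM in AAV-iLuc. The groups overlapped fully for both genes. Their log2 fold changes were 0.00 ± 0.06 (SE) each, and both lay between -0.10 and 0.05 over the 16 alternative settings. The span of a same-strand gene, Gm45120, overlaps that of Eed, and whether their exons overlap was not examined.

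Rbbp4 (ENSMUSG00000057236.11, chr4:129200893-129229163, minus strand), which binds histones H3 and H4 and also belongs to the NuRD, SIN3 and CAF-1 complexes, was lower by a small amount. Its level was 142, 154 and 149 CPM in AAV-iIL12 and 172, 174, 190 and 179 CPM in AAV-iLuc. All AAV-iIL12 libraries were below all AAV-iLuc libraries. The log2 fold change was -0.27 ± 0.06 (SE), or 0.831 of the control level, and -0.23 without AAV-iIL12 replicate 1. Rbbp7, its close relative and alternative in PRC2, was not called, at 148 ± 4.97 CPM (SD, n = 3) and 151 ± 5.48 CPM (SD, n = 4). Rbbp4 made up 25.0% ± 0.319 of the Rbbp4 and Rbbp7 sum in FPKM in AAV-iIL12 and 28.2% ± 0.166 in AAV-iLuc, with every AAV-iIL12 library (24.7% to 25.4%) below every AAV-iLuc library (28.1% to 28.4%).

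Among the Polycomb-like proteins, which bind CpG-rich DNA and carry a Tudor domain, Phf19 and Phf1 moved in opposite directions and Mtf2 was not called. Phf19 (ENSMUSG00000026873.10, chr2:34783769-34804038, minus strand) stood at 0.975, 2.23 and 2.53 CPM in AAV-iIL12 and at 7.70, 8.66, 13.1 and 7.94 CPM in AAV-iLuc. The AAV-iIL12 values rest on 16, 41 and 46 counts and the AAV-iLuc values on 148, 158, 220 and 154. The groups did not overlap, although AAV-iIL12 replicate 1 was far below its group's other libraries and AAV-iLuc replicate 3 above its own. Phf19 had the lowest fold change of the members, with a log2 value of -2.27 ± 0.30 (SE), 0.208 of the control level, at percentile 0.3 of all genes. Without AAV-iIL12 replicate 1 the log2 fold change was -1.96, and without AAV-iIL12 replicate 3 it was -2.51. Phf19 also had the widest spread within groups, with a coefficient of variation of 43.1% in AAV-iIL12 and 27.1% in AAV-iLuc, where Ezh2 had 7.67% and 9.22%.

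Phf1 (ENSMUSG00000024193.9, chr17:27152026-27156882, plus strand) stood at 36.6, 33.3 and 33.0 CPM in AAV-iIL12 and at 20.7, 20.0, 19.8 and 24.5 CPM in AAV-iLuc. All AAV-iIL12 libraries were above all AAV-iLuc libraries, and AAV-iLuc replicate 4 was the nearest to them. The log2 fold change was 0.69 ± 0.09 (SE), a 1.61-fold higher level, and lay between 0.64, without AAV-iIL12 replicate 1, and 0.76 with each library left out in turn. Mtf2 (ENSMUSG00000029267.18, chr5:108213540-108256870, plus strand), the Polycomb-like protein best known from embryonic stem cells, stood at 34.7, 37.1 and 34.5 CPM and at 34.1, 30.3, 33.1 and 37.0 CPM, with overlapping groups and a log2 fold change of 0.08 ± 0.08 (SE). A microRNA gene, Mir6968, lies on the same strand as Phf1 within an overlapping span, and whether it shares an exon with Phf1 was not examined.

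Within the sum of the Polycomb-like transcripts in FPKM, Phf19 had the smallest share in both groups. It was 1.15%, 2.67% and 3.13% in AAV-iIL12 and 11.3%, 13.5%, 18.5% and 10.4% in AAV-iLuc, with means of 2.32% ± 1.04 (SD, n = 3) and 13.4% ± 3.59 (SD, n = 4). The share of Phf1 was 59.8% ± 2.43 in AAV-iIL12 and 44.0% ± 2.62 in AAV-iLuc, without overlap. The share of Mtf2 was 37.9% ± 1.58 and 42.6% ± 1.45, and the groups again did not overlap (36.3% to 39.4% against 41.2% to 44.4%). The sum itself was 16.4 ± 0.384 FPKM in AAV-iIL12 and 13.9 ± 0.995 FPKM in AAV-iLuc. Shares of a sum are tied to one another, so a lower share of Mtf2 does not show a lower level of Mtf2.

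The members that define the other form of the complex were not called. Jarid2 (ENSMUSG00000038518.16, chr13:44882950-45075119, plus strand), a catalytically inactive Jumonji protein that helps to bring PRC2 to chromatin, stood at 82.9, 90.6 and 95.9 CPM in AAV-iIL12 and at 83.7, 91.7, 81.1 and 81.6 CPM in AAV-iLuc. Aebp2 (ENSMUSG00000030232.19, chr6:140568389-140624198, plus strand), a zinc finger protein that stabilises the complex, stood at 254, 272 and 264 CPM and at 284, 282, 263 and 277 CPM. The groups overlapped for both genes, and the log2 fold changes were 0.09 ± 0.06 (SE) for Jarid2 and -0.07 ± 0.06 (SE) for Aebp2. Aebp2 was called lower under 1 of the 16 alternative settings, scaling by library size alone, with a log2 fold change of -0.16. That scaling moved the median of all genes to -0.10.

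**Figure D3:**
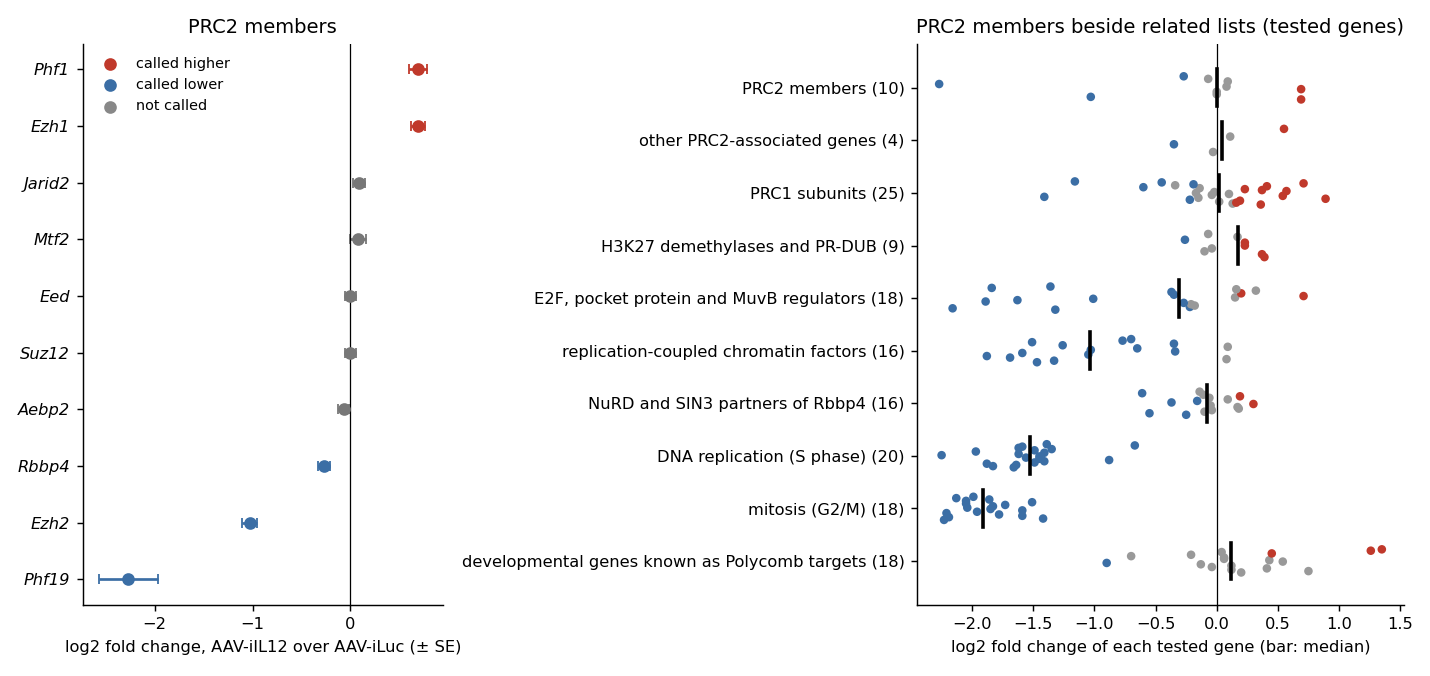
Left, the log2 fold change of each PRC2 gene, AAV-iIL12 over AAV-iLuc, with its standard error on the horizontal axis. Right, the log2 fold change of each tested gene of the PRC2 members and of 9 related lists, with the number of tested genes in brackets, the list median as a bar and colours for the call. Phf19 at -2.27 lies just below the lowest gene of the replication list (-2.25) and of the mitosis list (-2.23), and Ezh2 at -1.03 lies within the replication list (-2.25 to -0.67) but above every mitosis gene (-2.23 to -1.42).

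The order of the levels differed between the groups from rank 4 to rank 8. In AAV-iLuc the mean FPKM fell from Suz12 (46.2 ± 1.33) through Aebp2 (28.1), Rbbp4 (20.4), Ezh2 (14.8 ± 1.36), Eed (11.4), Jarid2 (8.70), Ezh1 (6.95), Phf1 (6.10) and Mtf2 (5.90) to Phf19 (1.86 ± 0.503). Each gene was above the next in 4 of 4 libraries, except Ezh1 above Phf1 in 3 of 4 and Phf1 above Mtf2 in 2 of 4, so these last neighbours did not differ beyond their spread. In AAV-iIL12 Suz12 (46.0 ± 3.08), Aebp2 (26.7) and Rbbp4 (17.0) again led, followed by Eed (11.4), Ezh1 (11.2), Phf1 (9.84), Jarid2 (9.24), Ezh2 (7.25 ± 0.557), Mtf2 (6.22) and Phf19 (0.379 ± 0.163). Here Eed was above Ezh1, and Phf1 above Jarid2, in 2 of 3 libraries each, and the other neighbours kept their order in 3 of 3. Ezh2 thus went from rank 4 to rank 8, Ezh1 from rank 7 to rank 5 and Phf1 from rank 8 to rank 6. The upper 3 places and the last were held by the same genes. The lengths are those of all annotated exons of a gene, so a gene with long rarely used exons has too low an FPKM.

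Genes of cell division were lower in the same libraries as Ezh2 and Phf19. All 20 tested genes of DNA replication were called lower, with a median log2 fold change of -1.52, and all 18 tested genes of mitosis were called lower, with a median of -1.91, where 23.7% of all genes were called lower. Mcm2, part of the helicase that opens replication origins, fell from 365 ± 41.3 CPM (SD, n = 4) to 115 ± 27.6 CPM (SD, n = 3), with an edgeR quasi-likelihood adjusted p of 2.54e-05. Top2a, the mitotic topoisomerase, fell from 417 ± 64.7 to 156 ± 41.7 CPM, with an edgeR adjusted p of 1.82e-04. Of 16 chromatin factors tied to replication, 14 fell and 0 rose, with a median of -1.04, close to the value of Ezh2. Hat1 (log2 fold change -0.70), Atad2 (-1.26), Kmt5a (-0.65), Chaf1a (-1.47), the large subunit of the CAF-1 complex that also holds Rbbp4, and the heterochromatin protein gene Cbx5 (-0.35) were among them. The part of cell division in the levels of Ezh2 and Phf19 was not tested.

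Between libraries of the same group the PRC2 members and the division genes can be set side by side. The mitosis list summed to 379, 659 and 635 CPM in AAV-iIL12 replicates 1 to 3 and to 2120, 1518, 2009 and 2310 CPM in AAV-iLuc replicates 1 to 4. The DNA replication list summed to 592, 866 and 842 CPM and to 2134, 1943, 2478 and 2294 CPM. AAV-iIL12 replicate 1, with the lowest sums, also had the lowest Ezh2, Phf19 and Rbbp4 and the highest Ezh1 and Phf1 of all libraries. Among the controls the orders matched only in part. AAV-iLuc replicate 2, with the lowest sums of its group, had the lowest Ezh2, but its Phf19 (8.66 CPM) was the second highest, and the lowest control Rbbp4 was in replicate 1 (172 CPM). AAV-iLuc replicate 3, with the highest replication sum, had the highest Phf19 and Rbbp4, while replicates 1 and 4, with the highest mitosis sums, had the lowest Phf19 (7.70 and 7.94 CPM). The highest control Ezh1 was in AAV-iLuc replicate 1. With so few libraries in each group these are single values and no relation was tested.

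**Figure D4:**
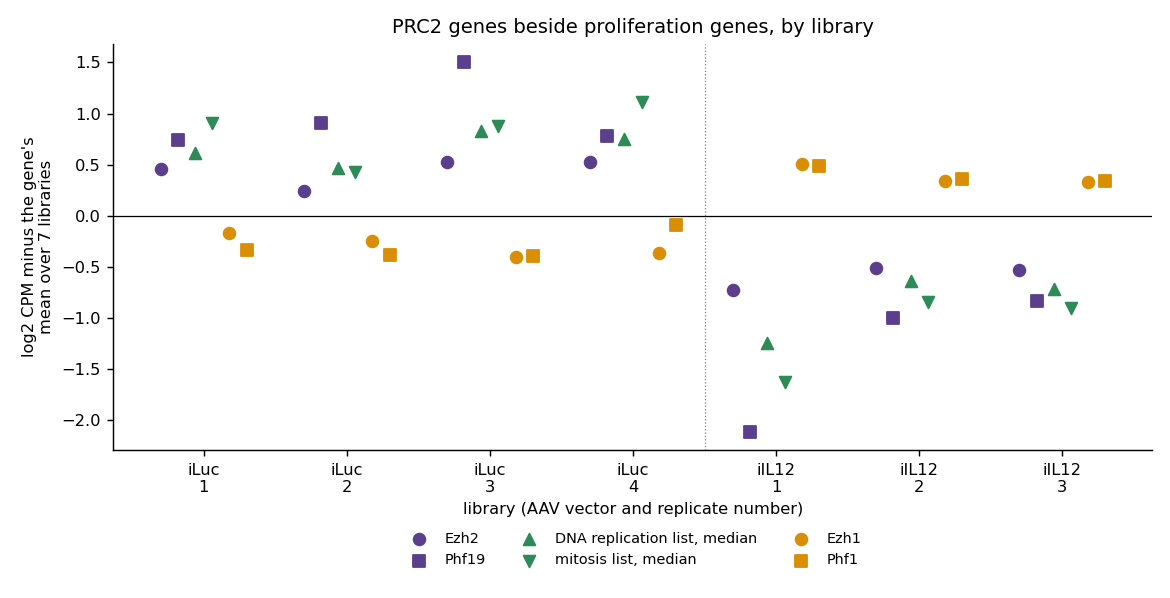
Log2 CPM of Ezh2, Phf19, Ezh1 and Phf1 in each library, centred on the mean of the gene over the 7 libraries, beside the centred medians of the DNA replication and mitosis lists, with libraries on the horizontal axis. In AAV-iIL12 replicate 1 Phf19 lies at -2.11 and the mitosis median at -1.62, the lowest points of both, and the 4 AAV-iLuc libraries lie above 0 for Ezh2, Phf19 and both lists and below 0 for Ezh1 and Phf1.

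The genes of most similar pattern were taken as those with the smallest root mean square difference of centred log2 CPM over the 7 libraries, among tested genes whose log2 CPM averaged 2 or more. For Ezh2 these were Topbp1, a replication checkpoint protein (difference 0.031), Dbf4, the activator of the Cdc7 kinase (0.044), Tfdp1, the dimer partner of E2F proteins (0.047), Nup85, a nuclear pore protein (0.054), and Dnmt1, the maintenance DNA methyltransferase (0.058). Dnmt1, as an example, fell from 290 to 140 CPM. For Phf19 they were Exo1, a DNA exonuclease (0.138), Cdc6, which licenses replication origins (0.186), Cdca7 (0.204), Ccne2, which encodes cyclin E2 (0.222), and E2f2 (0.247). All differences for Phf19 were larger than those for Ezh2, and Phf19 had 16 to 46 counts in AAV-iIL12. The measure includes the difference between the groups, so it picks genes of like fold change. Their log2 fold changes were -1.06 to -1.01 for the genes like Ezh2 and -2.25 to -1.97 for those like Phf19. The likeness chose these genes, so they are given without a test.

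The regulators around E2F moved in both directions. Of 18 tested genes for E2F proteins, pocket proteins and the MuvB complex, 11 were called lower and 2 higher, with a median log2 fold change of -0.31. The shares over all genes were 23.7% lower and 23.5% higher. The activator E2f2 fell from 11.7 ± 1.15 to 2.59 ± 1.10 CPM (edgeR adjusted p = 5.33e-05), E2f7 from 11.5 ± 2.55 to 3.10 ± 0.505 CPM (edgeR adjusted p = 4.54e-05) and Mybl2 from 19.9 ± 1.48 to 5.53 ± 1.63 CPM (edgeR adjusted p = 2.08e-05). Tfdp1 (log2 fold change -1.01) and Foxm1 (-1.36), a transcription factor of mitotic genes, were also called lower. The retinoblastoma gene Rb1, whose protein holds E2F in check, rose from 34.9 ± 2.38 to 57.1 ± 3.92 CPM (edgeR adjusted p = 4.14e-05), and its relative Rbl2 rose with a log2 fold change of 0.20. With AAV-iIL12 replicate 1 left out, 1 gene of the list was called higher.

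Among the remaining genes known to join PRC2, 1 of 4 tested was called higher and 1 lower. Over all genes 23.5% were called higher and 23.7% lower. Lcorl rose from 43.1 ± 3.62 to 62.9 ± 0.513 CPM (edgeR adjusted p = 1.46e-04), with a log2 fold change of 0.55. Epop, a partner of the Polycomb-like form of PRC2, fell from 17.6 ± 1.90 to 13.8 ± 0.643 CPM (edgeR adjusted p = 0.0158), with a log2 fold change of -0.35. Lcor (log2 fold change 0.11) and Rbbp7 (-0.03) were not called, and Ezhip, the PRC2 inhibitor, had 0 counts in every library. Without AAV-iIL12 replicate 1 there were 2 genes called higher and 0 lower in this group.

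In PRC1, the complex that ubiquitinates histone H2A and binds the mark that PRC2 makes, 10 of 25 tested genes were called higher, 6 lower and 9 not called, with a median log2 fold change of 0.02. Among all genes tested, 23.5% were called higher and 23.7% lower. Scaling by library size alone gave 7 higher and 8 lower. The 6 lower include Auts2, named after its values were seen, which had 4, 7 and 6 counts in AAV-iIL12 and passed the filter only through AAV-iLuc, and requiring 1 CPM in 3 libraries left 5 lower. Cbx2, a chromodomain reader of methylated H3K27, fell from 10.3 ± 2.76 to 3.84 ± 0.276 CPM (edgeR adjusted p = 5.13e-04), with no overlap between the groups. Kdm2b (log2 fold change -0.60), L3mbtl2 (-0.45) and Bcor (-0.19) were also called lower. Pcgf5 rose from 15.0 ± 2.76 to 27.8 ± 1.56 CPM (edgeR adjusted p = 2.81e-04), and Bcorl1 (0.71), Phc2 (0.57), Phc3 (0.37) and Bmi1 (0.16) were also called higher. Calls in both directions beside a median near 0 were also seen over all genes, whose median was -0.01.

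The H3K27 demethylases were set beside PRC2 with the enzyme and cofactors of PR-DUB, a complex that removes ubiquitin from histone H2A. Of 9 tested genes, 4 were called higher, 1 lower and 4 not called, where 23.5% of all genes were called higher and 23.7% lower. The median log2 fold change was 0.17, and scaling by library size alone gave 2 higher and 2 lower. The demethylase Kdm6a rose from 62.5 ± 4.84 to 81.7 ± 4.22 CPM (edgeR adjusted p = 0.00106), and Kdm6b rose from 210 ± 13.4 to 270 ± 23.3 CPM (edgeR adjusted p = 0.00248). Asxl2 and Foxk1, cofactors of PR-DUB, rose with a log2 fold change of 0.23 each, and Foxk2 fell by 0.26 on the log2 scale. The PR-DUB enzyme Bap1 (-0.10), Asxl1 (-0.04), Mbd5 (0.17) and Mbd6 (-0.07) were not called, and Asxl3 had too few counts to be tested.

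Rbbp4 was also set beside the complexes it shares. Of 16 NuRD and SIN3 genes, 5 were called lower, 2 higher and 9 not called, with a median log2 fold change of -0.08, against -0.27 for Rbbp4. For all genes the shares were 23.7% lower and 23.5% higher. The deacetylase Hdac2 fell from 103 ± 4.14 to 70.1 ± 2.07 CPM (edgeR adjusted p = 1.95e-05), and Hdac1 (log2 fold change -0.25), Mbd3 (-0.37) and Sap30 (-0.61) were also called lower. Mbd2 (0.30) and Sin3b (0.19) were called higher, and Chd4, the most abundant of the list at 975 ± 25.8 and 940 ± 19.6 CPM, was not called. Scaling by library size alone left 9 genes of this list called lower, and with AAV-iLuc replicate 2, AAV-iLuc replicate 4 or AAV-iIL12 replicate 3 left out there were 3.

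Of 56 developmental genes that textbooks list as Polycomb targets, 18 passed the filter on low counts. Over all genes in each file, 13990 of 56953 passed it. Of the 18 listed genes tested, 3 were called higher, 1 lower and 14 not called. Across all genes tested 23.5% were called higher and 23.7% lower. The most abundant, Foxc1, rose from 43.8 ± 4.71 to 105 ± 6.89 CPM (edgeR adjusted p = 3.22e-06). Foxf1 rose from 0.616 ± 0.120 to 1.58 ± 0.335 CPM (edgeR adjusted p = 0.00297), Hoxd13 rose with a log2 fold change of 0.45, and Hoxa11 fell from 6.14 ± 1.40 to 3.27 ± 0.840 CPM (edgeR adjusted p = 0.00798). A gene that passes only through the group in which it is higher is chosen partly by its difference, so these counts are no measure of the list. Without AAV-iLuc replicate 3, 2 genes of the list were called lower. The files hold no chromatin measurement, and whether these genes carried H3K27 methylation in these cells is unknown.

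Markers of other cells were low beside the melanocyte genes, and the summed leukocyte, T and NK cell and pericyte markers did not overlap between the groups. Each of these sums overlapped once its most abundant marker was left out. Leukocyte markers summed to 202 to 287 CPM in AAV-iIL12 and 82.2 to 96.3 CPM in AAV-iLuc, and 1 of 7 tested was called higher, Ptpn6, a phosphatase gene that supplied most of both sums. Without Ptpn6 the sums were 8.41 to 14.4 and 5.12 to 15.7 CPM, and Ptprc, the CD45 gene, was at 1.91 ± 0.760 and 0.770 ± 1.13 CPM. T and NK cell markers summed to 0.934 to 3.23 CPM and 0 to 0.832 CPM. Without Gzmb, their most abundant, the sums were 0.494 to 1.68 and 0 to 0.624 CPM. Macrophage markers summed to 23.5 to 37.0 CPM and 15.5 to 31.5 CPM, with 1 of 7 tested called higher. Fibroblast markers summed to 56.1 to 153 CPM and 81.1 to 286 CPM, with 0 of 6 called. Pericyte markers summed to 6.81 to 6.95 CPM in AAV-iIL12 and 10.7 to 11.9 CPM in AAV-iLuc, and 1 of 2 tested was called lower, Cspg4, with a log2 fold change of -1.10 (edgeR adjusted p = 2.11e-04). Without Cspg4 the pericyte sums were 2.03 to 3.78 and 2.29 to 3.04 CPM. The endothelial genes Cdh5, Emcn and Cldn5 were at 0 in every library. AAV-iIL12 replicate 1, with the lowest Ezh2 and Phf19, had the highest leukocyte, T and NK, macrophage and fibroblast sums of its group. Their part in the levels of the PRC2 genes was not tested.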

How the data were processed

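Gene counts were deposited for 7 libraries of polyadenylated RNA. Fragments in exons were assigned to genes of GENCODE vM32 by featureCounts 1.6.0 with reverse-stranded, paired-end settings, and reads mapping to several places were left out of the counts, per the file headers. The submitters' processing notes also name STAR 2.7.9a, FastQC 0.11.8, the build GRCm39, limma and edgeR. Symbols came from GENCODE vM21, which matched 52029 of 56953 identifiers holding 99.4% of counts, and 1 listed gene, Lin54, had no matched identifier and gets no value. Ezhip was matched through a RefSeq synonym.

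The groups were compared with the edgeR 4.0.16 quasi-likelihood F test (R 4.3.3), with TMM scaling, the filterByExpr filter and Benjamini-Hochberg adjustment over all genes tested at 0.05, after a check on simulated data. FPKM is CPM divided by the exon length in the files. Log2 CPM used a prior count of 2. Alternatives were other scalings and filters, DESeq2 1.42.0, limma-voom (limma 3.58.1) with and without quality weights, the replicate number as a block, and each library left out. The members and lists were chosen with earlier results of these data known. Named were all members, up to 4 called genes with the smallest p in each direction and the most abundant gene of each list, every gene of lists of 10 or fewer, and the 5 genes most like Ezh2 or Phf19. Where a list had more, a selection is printed. From the DNA replication and mitosis lists only the most abundant genes, Mcm2 and Top2a, were taken by this rule. Cdc6 is given for its likeness to Phf19. Promoters came from RefSeq on GRCm38.p6 and matched 10 of 10 members, with 14 windows. Coordinates of genes are on GRCm39. No pair of libraries agreed within sampling noise, and no batch is labelled. Counts per gene limit precision most for Phf19.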

Additional observations from a re-analysis of the deposited data

How the results depend on the processing

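Each member kept its call in 16 of 16 alternative settings, except Aebp2 in 15 of 16. The log2 fold change ranged from -1.12 to -0.96 for Ezh2, from -2.51 to -1.96 for Phf19, from 0.60 to 0.73 for Ezh1, from 0.60 to 0.76 for Phf1 and from -0.36 to -0.23 for Rbbp4. Scaling by library size only or by the upper quartile moved the median of all genes to -0.10 and -0.08. Under these scalings 1 gene of the E2F list and 1 of the NuRD and SIN3 list was called higher, 9 (library size) and 8 (upper quartile) of the NuRD and SIN3 list lower, and 2 of the demethylase and PR-DUB list lower, and under library size only 2 of that list higher. With limma-voom 4 NuRD and SIN3 genes were called higher. With 1 library left out, other PRC2-associated genes gave 1 to 2 higher and 0 to 1 lower, the E2F list 1 to 3 higher, NuRD and SIN3 1 to 3 higher and 3 to 5 lower, and developmental genes 1 to 2 lower. Same-numbered libraries of the groups had correlations of deviations of 0.088, 0.034 and -0.049, so the numbers were not taken to pair them. With the replicate block 2832 genes were called higher and 2828 lower, with 2 and 3 members, 1 NuRD and SIN3 gene higher and 0 other PRC2-associated genes lower. In CPM without length, the shares in AAV-iIL12 and AAV-iLuc were 47.9% and 33.1% for Phf1, 49.5% and 52.3% for Mtf2, and 50.1% and 54.2% for Rbbp4, since the genes' lengths differ. The cause of the other changes was not tested. Depth limits Phf19 most, with 16 to 46 counts in AAV-iIL12.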

Other observations

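Other promoter letters were searched in the same windows of 300 bases on both strands, where hits of different letters may overlap. Members and list genes are again counted by gene, and all promoters singly. TTTGAA, the letters of the cell cycle genes homology region bound by MuvB, occurred in 17.9% of all promoters and for Suz12, Eed, Mtf2 and Aebp2 among the members, and CCAAT occurred in 37.4% of promoters and for 7 of 10 members. Ezh2 held CCAAT at -90 to -86, -64 to -60 and -11 to -7 from the start and no TTTGAA. Phf19 held neither. By list, the E2F letters were found for 8 of 16 DNA replication genes with a promoter in the table, 6 of 14 genes of the E2F list, 4 of 14 replication-coupled chromatin factors and 1 of 16 mitosis genes, and for 0 of 19 PRC1 genes. TTTGAA was found for 11 of 16 mitosis genes and for 3 of 16 DNA replication genes. These are counts of letters, and no relation to the fold changes was tested.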
